A study of Mus musculus and synthetic RNA with 74 samples.

Results

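Of the 36835 predicted RNA structures measured in this in vitro methylation experiment, 269 (0.730%) place the adenosine at position 15 of the RNA in a bulge of a single nucleotide. They were chosen from the dot bracket notation alone, in which a dot is an unpaired base and a pair of brackets a base pair: position 15 is unpaired, positions 14 and 16 are paired on the same strand of a helix, and their partners are adjacent to each other. No measured value entered this rule, although it was set with earlier results of these data known. Which structures are listed does depend on measured values. Of the 269, 131 are listed only through high values after the enrichment described below. The experiment incubated a synthetic library of 30-nt RNAs with recombinant full-length human METTL16 in duplicate reactions, numbered 11 and 12 in the labels. From each reaction came an input and an immunoprecipitate (m6A-IP) made with an antibody against N6-methyladenosine (m6A). This gives 2 input libraries, input 11 and input 12, and 2 m6A-IP libraries, IP 11 and IP 12, all from RNA that had met the enzyme, so enrichment is measured against the input and no library without METTL16 was analysed here.

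METTL16 is an RNA methyltransferase that transfers a methyl group from S-adenosylmethionine to the N6 position of adenosine. Its known targets are the U6 small nuclear RNA, a component of the spliceosome, and hairpins in the mRNA of MAT2A, the enzyme that makes S-adenosylmethionine. Both carry the adenosine that is modified inside a conserved nonamer. A bulge is an unpaired stretch on one strand of a helix, opposite an uninterrupted strand, and the pairs on its sides can still stack on each other.

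Every RNA of the library had this nonamer at positions 12 to 20, between 11 randomized nucleotides on the 5′ side and 10 on the 3′ side. The template is printed with the adenosine of position 15 in capitals, above the structures that the results turn on. Because the nonamer is fixed, the bulged structures differ in their random flanks only, and in all 269 of them every partner of a nonamer base lay in a flank. C14 was paired in all 269, which needs a G in the flank, and G16 was paired in all 269, to a C or U. A13 was paired to a U in 238 structures, A17 to a U in 266, U12 to an A or G in 197 and G18 to a C or U in 154. The adenosines of positions 19 and 20 were paired in 23 and 14 structures. A hairpin is named here by the number of stacked pairs on the outside of the bulge, the number stacked between the bulge and the loop, and the number of unpaired bases in the loop, so that the 3-3-4 hairpin has 3 pairs, the bulge, 3 pairs and a loop of 4.
library RNA: nnnnnnnnnnnuacAgagaannnnnnnnnn
3-4-3 hairpin: ...........(((.((((...))))))).
3-3-3 hairpin: ...........(((.(((...))))))...
3-3-4 hairpin: ...........(((.(((....))))))..
3-2-6 hairpin: ...........(((.((......)))))..
3-3-4 hairpin, bulge on the 3′ strand: .((((((....))).)))............
1-2-4 hairpin with a further bulge: ........((((.(.((....)))))))..

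Values are reads per structure divided by the size factor of the library, called normalized counts below. The table held 20454163 reads in input 11, 18106811 in input 12, 22118622 in IP 11 and 1154715 in IP 12. The bulged structures had a median of 10 reads in IP 12 and 2 of them had none, so its values for single structures are coarse. Across all structures, limma's moderated test on log2 of the normalized count plus 5, with a Benjamini-Hochberg adjusted p of at most 0.1, called 12.5% enriched and 27.2% depleted in the m6A-IP libraries. All fold changes and standard errors of single structures below are on this scale, as m6A-IP over input.

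The 269 bulged structures together took a larger share of the m6A-IP libraries than of the input libraries. They accounted for 0.388% of the reads in input 11 (95% Wilson interval 0.385% to 0.391%) and 0.387% in input 12 (0.384% to 0.390%). They accounted for 1.14% of the reads in both m6A-IP libraries (1.138% to 1.146% in IP 11 and 1.116% to 1.155% in IP 12). These intervals cover counting error only. Their summed normalized counts were 41170 and 41001 in the inputs and 115986 and 90857 after m6A-IP, a log2 ratio of 1.49 in reaction 11 and 1.15 in reaction 12, where the sum over all structures had -0.06 and -0.40. The m6A-IP values lay above the input values in both reactions, but with 2 against 2 libraries an exact two-sided permutation test of the share cannot go below p = 0.333, which is the value it gave. By single structures, 156 (58.0%) were enriched, 7 were depleted and 106 were not called. The median log2 fold change was 0.81, with a range of -1.66 to 3.53, against a median of -0.27 for all structures. In all 156 enriched structures both m6A-IP values exceeded both input values, as they did in 187 of the 269 and in 25.3% of all structures.

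The table lists a structure only when its mean over the 4 libraries reaches 16.8, so a structure that is rare in the input is listed only when its m6A-IP values are high. This applied to 131 of the 269. The other 138 had a mean input value of at least 33.7, enough to be listed whatever their m6A-IP values. Of these 138, 63 (45.7%) were enriched and 7 were depleted, where 9.91% of all structures listed in this way were enriched and 36.7% depleted. Both m6A-IP values exceeded both input values in 74 of the 138, against 19.2%, and the median was 0.45 against -0.41. The summed log2 ratios of the 138 were 1.47 and 1.11 in reactions 11 and 12, and the exact permutation test of their share gave p = 0.333. Below, these 138 are called the input-listed structures. Tests of summed values below use input-listed structures alone, except those against other classes of structure, which use all listed structures. Leaving out a library changed the number called: of the 269, 93 were enriched without input 11, 94 without input 12, 178 without IP 11 and 218 without IP 12, where 2.36%, 2.32%, 22.9% and 30.4% of all structures were enriched. In these fits 0, 0, 55 and 16 of the 269 were depleted, where 5.71%, 5.41%, 56.0% and 41.1% of all structures were depleted. With the reaction added as a block, 153 were enriched and 12 depleted, against 11.6% and 29.5% of all structures.

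The bulged structures differed among themselves by the pairs that flank the bulge. These groups were formed with the values known. When U12, A13 and C14 on one side and G16, A17 and G18 on the other were all paired and stacked next to the bulge, 94 of 101 structures were enriched and 0 depleted, with a median log2 fold change of 2.07. All 27 of these that were input-listed were enriched, with log2 fold changes from 0.73 to 3.26. Of the other 168 structures, 62 were enriched and 7 depleted, with a median of 0.34, and among the 111 of them that were input-listed 36 were enriched. The 101 structures held 42.7% of the bulged structures' summed input and 70.0% of their summed m6A-IP values. Where fewer than 3 pairs were stacked on both sides, 6 of 53 structures (11.3%) were enriched and 6 depleted, against 12.5% and 27.2% of all structures. Among the 39 of them that were input-listed, 4 were enriched and 6 depleted, against 9.91% and 36.7%. The share enriched was thus near that of all structures. Summed over the 53, m6A-IP values were 1.03 times the input in reaction 11 and 0.751 times in reaction 12.

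A larger difference went with the stack between the bulge and the loop than with the stack outside it. With the bulge on the 5′ strand of its helix, as in 224 structures, this stack begins with G16, and the next pairs involve A17 and G18. Among all structures 12.5% were enriched and 27.2% depleted, and 9.91% and 36.7% of all those listed whatever their m6A-IP values. Of the 111 structures on this strand with 2 pairs in the stack, 30 were enriched and 5 depleted, with a median of 0.14. Of 108 with 3 pairs, 93 were enriched and 0 depleted, with a median of 1.99, and all 5 with 4 pairs were enriched. Among input-listed structures the counts were 19 of 77 for 2 pairs, 30 of 35 for 3 and 4 of 4 for 4. Summed over the 39 input-listed structures with at least 3 such pairs, the log2 ratios were 2.13 and 1.75 in reactions 11 and 12, and over the 77 with 2 pairs they were 0.45 and 0.07. The difference was 1.68 in both reactions, and the exact permutation test again gave its smallest possible p = 0.333. With the bulge on the 3′ strand, as in 45 structures, the stack towards the loop begins with C14 and the next pairs involve A13 and U12. There the summed values of the 9 input-listed structures with at least 3 pairs had log2 ratios of 1.96 and 1.67, and those of the 13 with fewer had 0.35 and -0.03. The difference of 1.60 and 1.70 had the same permutation p of 0.333. On this strand 25 of 28 structures with at least 3 inner pairs and 3 of 17 with fewer were enriched, and of those input-listed 7 of 9 and 3 of 13.

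Pairs of structures that differ by 1 base pair and the size of the loop gave the same comparison with the rest of the fold unchanged. Closing the innermost position of the loop adds a pair and takes 2 bases from the loop. On the 5′ strand this was possible for 50 pairs of listed structures going from 2 to 3 inner pairs. The structure with 3 pairs had the higher m6A-IP to input ratio in both reactions in 48 of the 50 and the lower ratio in both in 0, with a median gain of 1.48 in log2 fold change (range 0.24 to 3.27). In the 31 of these pairs where both structures were input-listed, the count was 30, with a median of 1.43. On the 3′ strand the ratio rose in both reactions in 7 of 7 pairs, with a median gain of 1.75 (1.14 to 3.01). Where both structures were input-listed it rose in 6 of 6 pairs, with a median of 1.63 (1.14 to 1.95). Many of these pairs share structures and all share the 4 libraries, so they are not independent replicates.

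The change is seen in single structures of high depth. The 3-2-6 hairpin had normalized counts of 864 and 820 in the inputs and 1544 and 1178 after m6A-IP, a log2 fold change of 0.68 ± 0.18 (SE, limma adjusted p = 0.046). With G18 paired as well it becomes the 3-3-4 hairpin, which had 1282 and 1243 in the inputs and 8493 and 6882 after m6A-IP, a log2 fold change of 2.59 ± 0.18 (adjusted p = 0.014). The m6A-IP values did not overlap the input values in either, and the gap was wider in the second. The hairpin with 2 inner pairs and a loop of 5 had 433 and 434 in the inputs and 599 and 374 after m6A-IP, which overlap, and it was not called (0.13 ± 0.24, adjusted p = 0.71). Its partner with 3 inner pairs, the 3-3-3 hairpin, had 633 and 638 in the inputs and 4503 and 3583 after m6A-IP (2.65 ± 0.17, adjusted p = 0.014). The added pair and the smaller loop change together in these pairs, and their separate parts were not tested. At equal loops of 5 and 6, the hairpins with 3 inner pairs had 1.81 ± 0.20 and 0.91 ± 0.22, against 0.13 and 0.68 with 2.

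An inner stack of 4 pairs gave different values on the 2 strands. On the 5′ strand the ratio rose in both reactions in 5 of 5 pairs, with a median of 0.96, and 4 of the 5 pairs were input-listed on both sides. Here the added pair involves A19. The 3-4-3 hairpin, which adds it to the hairpin with a loop of 5, had 182 and 191 in the inputs and 2160 and 1553 after m6A-IP, a log2 fold change of 3.26 ± 0.20 (adjusted p = 0.014), against 1.81 ± 0.20 for the 3-3-5 hairpin. On the 3′ strand, where the added pair involves the last random base before the nonamer, the ratio fell in both reactions in 4 of 4 pairs, with a median of -0.77, of which 1 was input-listed on both sides. The difference between the strands was not tested.

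On the outside of the bulge, the median of groups by number of stacked pairs was highest for 3. On the 5′ strand, 6 of 30 structures (20.0%) with only the C14 pair outside the bulge were enriched and 5 were depleted, with a median of 0.14. Among all structures 12.5% were enriched and 27.2% depleted. With 2 pairs 28 of 56 were enriched and 0 depleted, with 3 pairs 67 of 90 and 0, with 4 pairs 24 of 37 and 0, and with 5 pairs 2 of 7 and 0. Of the 3 with 6 pairs 1 was enriched, and the 1 with 7 pairs was not called. The medians for 2 to 5 pairs were 0.56, 1.68, 1.28 and 0.02. Among input-listed structures 4 of 22, 14 of 35, 24 of 35, 8 of 15 and 2 of 5 were enriched for 1 to 5 pairs. Of all structures listed in this way 9.91% were enriched. Within input-listed structures that had at least 3 inner pairs, the 20 with at least 3 outer pairs had summed log2 ratios of 2.31 and 1.92, and the 8 with only the C14 pair had 0.64 and 0.18, a difference of 1.67 and 1.75 (exact permutation p = 0.333). For all input-listed structures on this strand, those with at least 3 outer pairs exceeded those with fewer by 1.02 and 1.05. Pairs of structures that differ only by going from 2 to 3 outer pairs did not show a steady gain on this strand. Of 21 such pairs the ratio was higher in both reactions in 11 and lower in both in 6, with a median of 0.32. Where both were input-listed it was higher in 5 of 12 and lower in 5, with a median of 0.01. From 3 inner pairs it was higher in 5 of 7 and lower in 1, with a median of 0.79. From 2 inner pairs it was higher in 6 of 14 and lower in 5, with a median of -0.07. On the 3′ strand it was higher in both reactions in 2 of 4 pairs and lower in 0, with a median of 1.02.

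On the 5′ strand, an outer stack of 4 pairs, which takes in position 11, went with lower values than one of 3. In 34 pairs of structures that differ by it, the ratio was lower in both reactions in 19 and higher in both in 2, with a median of -0.50. Where both structures were input-listed it was lower in both reactions in 16 of 19 and higher in 0, with a median of -0.81. On the 3′ strand the change from 3 to 4 outer pairs had no such direction: the ratio was higher in both reactions in 4 of 7 pairs and lower in both in 3, with a median of 0.13, and where both were input-listed it was higher in 4 of 5 and lower in 1. Going from 4 to 5 outer pairs on the 5′ strand, the ratio was lower in both reactions in 9 of 9 pairs, with a median of -0.53. With a pair at position 11 added, the 3-3-4 hairpin went from 2.59 to 2.07 and the 3-4-3 hairpin from 3.26 to 2.71.

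The structures with the largest enrichment shared this arrangement. The 10 with the largest log2 fold change, from 2.92 to 3.53, all had the bulge on the 5′ strand, exactly 3 stacked outer pairs and at least 3 inner pairs. Their loops had 3 bases in 8 and 4 bases in 2. In 7 of the 10 the helix continued beyond an unpaired base or bases after these outer pairs, and 2 of the 10 had a second hairpin in the 5′ flank. As 6 of the 10 were listed only through their m6A-IP values, the input-listed ones are given here with their values. Besides the 3-4-3 hairpin, these were 3 forms of the 3-3-3 hairpin whose helix resumes after an unpaired position 11.
1 outer pair after an unpaired base on each strand: .........(.(((.(((...)))))).).
2 outer pairs after an unpaired base on the 5′ strand: ........((.(((.(((...)))))))).
2 outer pairs after an unpaired base on each strand: ........((.(((.(((...)))))).))
The first of these had normalized counts of 58.1 and 59.0 in the inputs and 573 and 534 after m6A-IP. The second had 48.8 and 49.7 in the inputs and 508 and 437 after m6A-IP. The third had 114 and 105 in the inputs and 1063 and 929 after m6A-IP. Their log2 fold changes were 3.13 ± 0.16, 3.13 ± 0.17 and 3.13 ± 0.16 (adjusted p = 0.014 for each), against 2.65 ± 0.17 for the 3-3-3 hairpin itself. The differences between these structures were not tested. Where position 11 was paired in the third of them, giving 6 uninterrupted outer pairs, the values were 186 and 190 in the inputs and 831 and 568 after m6A-IP (1.84 ± 0.22). On the 5′ strand, 15 structures had at least 3 inner pairs, 3 outer pairs, a break and a further helix, and the 6 of them that were input-listed were all enriched with a median of 2.99. The 6 single hairpins with such stacks and no break were also all enriched, with a median of 2.37.

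The 7 depleted structures all had 2 inner pairs. In 5 of them, all on the 5′ strand, A13 was unpaired as well, so that C14 stood as a lone pair between 2 unpaired adenosines. Such a break at position 13 was present in 31 of the 269 structures, of which 7 (22.6%) were enriched and 5 depleted. Among all structures 12.5% were enriched and 27.2% depleted. Of the 23 that were input-listed, 5 were enriched and 5 depleted, against 9.91% and 36.7% of all structures listed in this way. The 1-2-4 hairpin with a further bulge at position 13 was one of the depleted structures, with 245 and 237 in the inputs and 144 and 111 after m6A-IP. Its log2 fold change was -0.90 ± 0.19 (adjusted p = 0.026). Its neighbor with a loop of 5 had 323 and 296 in the inputs and 214 and 125 after m6A-IP (-0.90 ± 0.27, adjusted p = 0.058). The other 3 on this strand had log2 fold changes from -0.90 to -0.50. The 2 depleted structures on the 3′ strand had -0.81 ± 0.31 and -0.90 ± 0.26, each with 5 reads in IP 12. With the reaction as a block, the weakest of the 7 was not called (adjusted p = 0.14), nor were the 3 enriched structures with the smallest log2 fold changes, 0.46 to 0.58 (adjusted p from 0.11 to 0.15). The lowest values of all bulged structures, -1.66 ± 0.92 on the 5′ strand and -1.66 ± 0.75 on the 3′ strand, belonged to structures with 0 reads in IP 12. They were not called (adjusted p = 0.21 and 0.14), but passed with the reaction as a block (adjusted p = 0.0034 and 0.021).

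The size of the loop was followed in the 3-3 hairpin on the 5′ strand, where the loop grows at the expense of the 3′ tail. Loops of 3 and 4 bases gave 2.65 ± 0.17 and 2.59 ± 0.18, and the difference between them was not tested. A loop of 5, with 541 and 558 in the inputs and 2302 and 1629 after m6A-IP, gave 1.81 ± 0.20. A loop of 6, with 1975 and 1946 in the inputs and 4473 and 3022 after m6A-IP, gave 0.91 ± 0.22 (adjusted p = 0.037), so the values fell from 4 to 6 bases while the pairs around the bulge stayed the same. In the 20 input-listed structures of this strand with at least 3 pairs on each side, the 16 with loops of 3 or 4 had summed log2 ratios of 2.58 and 2.22 and the 4 with loops of 5 or 6 had 1.54 and 1.04, a mean difference of 1.11 over the 2 reactions (exact permutation p = 0.333). On the 3′ strand the 3-3 hairpins with loops of 3, 4 and 5 had 1.86 ± 0.16, 2.07 ± 0.18 and 2.01 ± 0.17. The differences between these were not tested. With 2 inner pairs on the 5′ strand, the ratio rose in both reactions in 14 of 27 pairs and fell in 3 from 4 to 5 bases, with a median of 0.24. It rose in 9 of 12 and fell in 0 from 5 to 6 bases, with a median of 0.37, and rose in 1 of 5 and fell in 2 from 6 to 7 bases, with a median of -0.05. On the 3′ strand with 2 inner pairs it rose in 2 of 4 and fell in 1 from 4 to 5 bases, with changes from -1.85 to 0.58.

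The summed values differed less between the strands of the bulge than between stack lengths, and single mirror pairs varied. The mirror of the 3-3-4 hairpin, with the bulge on the 3′ strand, had 1217 and 1212 in the inputs and 5792 and 4526 after m6A-IP, 2.07 ± 0.18 (adjusted p = 0.014) against 2.59 on the 5′ strand. The mirror of the 3-4-3 hairpin had 1548 and 1541 in the inputs and 4627 and 3805 after m6A-IP, 1.44 ± 0.17 (adjusted p = 0.014) against 3.26. Over input-listed structures with at least 3 pairs on each side, the 20 on the 5′ strand exceeded the 7 on the 3′ strand by 0.33 and 0.23 in the log2 ratio of sums (exact permutation p = 0.333). The most abundant bulged structure in the input was on the 3′ strand, the 3-3-5 hairpin, with 1997 and 1973 in the inputs and 8801 and 7243 after m6A-IP. Its log2 fold change was 2.01 ± 0.17 (adjusted p = 0.014), against 1.81 ± 0.20 for the same hairpin on the 5′ strand. As the nonamer is fixed, changing the strand also moves the partners from the 3′ flank to the 5′ flank, and these cannot be told apart.

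A second hairpin was present in 75 structures, in the 5′ flank in 57 and in the 3′ flank in 18. Of these 75, 63 were enriched and 0 depleted, with a median of 1.76, but their mean input values ran from 1.95 to 41.0 and 1 of the 75 was input-listed, so these counts rest on structures chosen by their m6A-IP values and are given as a description. Compared with the same bulged hairpin alone, adding the second hairpin in the 5′ flank left the ratio higher in both reactions in 14 of 57 pairs and lower in both in 20, with a median change of -0.07. From 2 inner pairs it was higher in 7 of 12 and lower in 1, with a median of 0.58. From 3 inner pairs it was higher in 7 of 45 and lower in 19, with a median of -0.18. In the 3′ flank it was higher in 1 of 18 and lower in 10, with a median of -0.29. These comparisons also rest on structures chosen by their m6A-IP values, as 1 of the 57 pairs was input-listed on both sides, and are a description only.

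The same hairpin could be followed with its bulge at other positions of the RNA, where other bases of the nonamer are paired. The fold of the 3-3-4 hairpin was listed with its bulge at position 15 and at 10 other positions. This series and that of the 3-3-3 hairpin were added after the values of the hairpins had been seen. With the bulge at position 14 it had 1401 and 1328 in the inputs and 916 and 811 after m6A-IP and was depleted (-0.66 ± 0.15, adjusted p = 0.033). At position 13 it had 2879 and 2934 in the inputs and 2813 and 2239 after m6A-IP and was not called (-0.21 ± 0.18, adjusted p = 0.39). With the bulge at positions 4 to 9, the log2 fold changes lay between -0.92 and 0.32. Towards the 3′ end they stayed high: at position 16, with 25.9 and 28.1 in the inputs and 172 and 132 after m6A-IP, it was 2.28 ± 0.21, and at position 17, with 86.6 and 87.7 in the inputs and 496 and 340 after m6A-IP, it was 2.17 ± 0.22 (adjusted p = 0.014 for both). Both lie below the 2.59 at position 15, a difference that was not tested, and in them position 15 is paired. The structure at position 16 is listed only through its m6A-IP values, that at position 17 is not.

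The 3-3-3 hairpin gave 2.65 with its bulge at position 15, 0.11 ± 0.22 at position 14 and 1.53 ± 0.21 at position 17, with values from -1.19 to 0.55 at positions 4 to 9. The 3-4-3 hairpin gave 3.26 at position 15, 1.06 ± 0.16 at position 14 (adjusted p = 0.016) and -0.70 ± 0.23 at position 13 (adjusted p = 0.068). Between positions 4 and 8 it ranged from -1.27 to 0.78. The fold with the largest value of all, listed through its m6A-IP values, had 7.78 and 5.85 in the inputs and 165 and 104 after m6A-IP with its bulge at position 15 (3.53 ± 0.30, adjusted p = 0.014), and 25.4 and 22.8 in the inputs and 35.8 and 41.6 after m6A-IP with it at position 14, where it was not called (0.58 ± 0.24, adjusted p = 0.12). In these 4 series the value fell by more than the standard errors when the bulge moved from position 15 to 14. The folds were chosen for large values, or with their values known, at position 15. A fall on moving away was therefore likely beforehand, and it is given as a description. The fold with the second largest value was not listed with its bulge at position 14.

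Other interruptions of a helix near position 15 had smaller summed ratios, but among input-listed structures a bulge at position 16 was called enriched about as often. Among all structures 12.5% were enriched and 27.2% depleted. Position 15 lay in a larger bulge on one strand in 246 structures, of which 74 (30.1%) were enriched and 14 depleted, with summed log2 ratios of 0.42 and 0.08. It lay in an interior loop, with unpaired bases on both strands, in 934 structures, of which 203 (21.7%) were enriched and 81 depleted, with 0.19 and -0.16. A 1-nt bulge at position 16 or 17 was present in 571 structures, of which 136 (23.8%) were enriched and 48 depleted, with 0.56 and 0.24. Of these, 21 had it at position 16 and 550 at position 17. A further 3 structures had bulges at both 15 and 17 and were counted only with the bulge at position 15. Over all listed structures, including those listed only through their m6A-IP values, the bulge at position 15 exceeded these classes in the log2 ratio of sums. The differences were 1.07 and 1.06, 1.31 and 1.31, and 0.93 and 0.91 in reactions 11 and 12. The differences varied by at most 0.03 between reactions, and the exact permutation test gave p = 0.333, its minimum, for each. As structures listed only through their m6A-IP values are included, these tests are a description only. Among input-listed structures 63 of 138 (45.7%) were enriched at position 15, against 9.91% of all structures listed in this way. In the 3 classes 43 of 159 (27.0%), 139 of 622 (22.3%) and 73 of 324 (22.5%) were enriched. Their summed log2 ratios were 0.41 and 0.06, 0.17 and -0.18, and 0.55 and 0.22, against 1.47 and 1.11 at position 15. The differences between these input-listed sums were not tested. The last class is mostly the bulge at position 17, with 65 of 307. At position 16, 9 of all 21 structures (42.9%) were enriched, against 58.0% at position 15. Of the 17 that were input-listed, 8 (47.1%) were enriched, with a median of 0.51 against 0.45 at position 15. The summed log2 ratios over all 21 were 0.73 and 0.43. Over all listed structures, the bulge at position 15 exceeded that at 16 in the log2 ratio of sums by 0.76 and 0.72 (exact permutation p = 0.333). This too includes structures listed only through their m6A-IP values and is a description.

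The natural sites in mouse Mat2a were placed in the same 30-nt frame to see which fold they take. On GRCm38 the transcript Mat2a-201 carries the nonamer at 5 sites, all in the 3′ UTR in its last exon on the minus strand of chromosome 6. The window of the first is shown, with the nonamer in capitals.
chr6:72434235-72434264, minus strand: ttggcgtaggtTACAGAGAAgccttcaagc
Folded alone with RNAfold, 0 of the 5 windows had position 15 in a 1-nt bulge, and in all 5 it lay in a hairpin loop. All 5 folds were listed in the library table. That of the window shown had 59.6 and 63.7 in the inputs and 50.1 and 48.5 after m6A-IP and was not called (-0.30 ± 0.19, adjusted p = 0.28). The other 4 had log2 fold changes from -1.72 to -0.22, and 3 of them were depleted. These values are of random RNAs that share the fold, not of the Mat2a sequence, and a window of 30 nt can cut off pairs that the longer transcript forms.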

How the data were processed

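In vitro methylation of the randomized RNA library was measured in 2 input and 2 m6A-IP libraries. Per the labels and the study's methods, the authors trimmed reads with cutadapt (version 1.9.1 in the submitters' processing notes), predicted the fold of each RNA with RNAfold, counted reads per dot bracket structure and divided them by DESeq2 size factors (version 1.18.1). The deposited signal is thus a normalized number of reads per structure, and divided by its step it is whole within 0.01 read in every library. The authors' own fold changes and p-values in the table, and the tables of the embryo experiment, were not used here.

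Members, classes, stack lengths and loops were read from the dot bracket with Python 3.11.15, numpy 2.4.6 and pandas 2.3.3. All 36835 structures were fitted with limma 3.58.1 in R 4.3.3 (trend, pseudocount 5, Benjamini-Hochberg over all structures, threshold 0.1), a step tested on simulated data. Sums of members were compared by exact two-sided permutation of the 4 libraries (scipy 1.17.1). Mat2a windows came from GENCODE vM21 transcripts and were folded with RNAfold 2.7.2. The study describes the reactions as duplicates run on the same RNA library, so p-values measure the spread between these 2 reactions. Same-numbered input and m6A-IP libraries come from one reaction, from which the input was set aside. Their deviations from the group means correlated with r = 0.015 over all structures. The reaction as a block was therefore an alternative fit.

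Structures named singly were the 10 largest log2 fold changes, the 5 largest with a mean of at least 1000, all depleted ones, the 5 with the largest input, the 3 smallest enriched, the extremes of each strand, and shifted, mirrored or loop-changed forms. Structures shown as 1-pair neighbors, 2 shifted series and the Mat2a windows were chosen after values were seen. The members and lists were chosen with earlier results of these data known. The alternatives were other pseudocounts, library totals, a filter, the block, each library left out, longer stacks and, added after seeing the data, only input-listed members.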

Additional observations from a re-analysis of the deposited data

How the results depend on the processing

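The planned tests on counts, edgeR and DESeq2, were not run: the deposited values are normalized, and no count model was applied to the reads calculated back from them. The number of enriched members, 156, was 152 and 158 with pseudocounts of 1 and 20, 139 of 237 with a mean of at least 20, and 188 with libraries scaled to their totals. That scaling moved the median of all structures from -0.27 to -0.06 and the median of the members from 0.81 to 1.03, with 7 members depleted, so that 96.4% in place of 95.7% of the called members were enriched, against 47.6% in place of 31.5% of all called structures. With the reaction as a replicate block, 153 members were enriched, 149 of them the same, and 12 were depleted in place of 7. The block changed the call of 6 of 44 structures examined singly, given above. Without 1 library the enriched ranged from 93 to 218 (2.32% to 30.4% of all structures), the depleted from 0 to 55 (5.41% to 56.0% of all structures) and the median from 0.78 to 1.02. The summed log2 ratio, 1.32, ranged from 1.14 to 1.50. In structures with at least 3 pairs on each side, the number enriched was 71 without input 11 and without input 12, 98 without IP 11 and 101 without IP 12, and with fewer than 3 inner pairs it was 1, 0, 49 and 79. The causes were not tested. Members with at least 2 stacked pairs on each side numbered 235, with 148 enriched, 2 depleted and a median of 1.19. With at least 3 there were 94 enriched of 101, 0 depleted, a median of 2.07 and a summed ratio of 2.03. Input-listed members had 63 enriched, 7 depleted, a median of 0.45 and a summed ratio of 1.29.

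Among structures examined singly, the shifted form of the second largest member with its bulge at position 13 changed from 0.15 to -0.05 without input 12, to -0.37 without IP 11 and to 0.67 without IP 12. The 3-4-3 hairpin with its bulge at position 5 changed from -0.12 to 0.11 with library totals, to 0.0046 without IP 12 and to -0.25 without IP 11. Of these, 0.67 and -0.25 passed the threshold (limma adjusted p = 0.0016 and 0.0052). Depth limits IP 12, where the median structure had 6 reads.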
